A study of Mus musculus with 96 samples.

Results

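Expression of 7 genes of iron handling was followed through islets and liver of mice fed a high-fat diet (HFD) or a chow diet (CD). They were the hepcidin genes Hamp and Hamp2, the transferrin receptor Tfrc, the ferritin chains Fth1 and Ftl1, the iron exporter ferroportin (Slc40a1) and bone morphogenetic protein 6 (Bmp6). The members were taken by gene symbol from the deposited expression table, and all 7 were found among its 21990 genes, of which 20155 had values.

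Islets and liver came from the same 48 male C57BL/6N mice, a wild-type inbred strain, obtained at 4 weeks of age. The chow was LabDiet 5001, with fat at 13.5%, and the HFD was D12492 from Research Diets, which held 60%. Of each diet, 4 separate mice were taken after 4, 8, 12, 16, 20 or 24 weeks, which gave 24 groups of 4 libraries and 96 libraries in all. Islets were picked by hand after collagenase digestion, liver was sampled from a fixed region, and poly(A) RNA was sequenced. The chow and the HFD also differ in protein, carbohydrate, minerals and vitamins. The effect of fat and that of other ingredients thus cannot be told apart. Neither can weeks on diet, the age of the mice and the day of collection. The iron content of either food was not given in the sources used here, and its part in the differences was not tested.

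Hepcidin is a peptide hormone that the liver secretes when iron is plentiful or during inflammation, and it makes cells degrade ferroportin, the only known exporter of iron, so that less iron enters the blood. Its gene is switched on by BMP6, which liver endothelial cells release and which acts through SMAD proteins, and by interleukin 6 acting through STAT3. Inside cells, iron regulatory proteins bind hairpins called iron-responsive elements when iron is scarce, which stabilises the Tfrc mRNA and blocks translation of the ferritin and ferroportin mRNAs, so mRNA levels of these genes do not give the amounts of protein.

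The upstream sequences of the hepcidin genes are shown because Hamp and its near copy Hamp2 are reported as separate genes. Their HFD effects were not tested against each other. Hamp and Hamp2 lie on the minus strand of chromosome 7, and the 250 bases before each start were read 5′ to 3′ from the RefSeq promoter table (build GRCm38.p6), at chr7:30944030-30944279 for Hamp and chr7:30924182-30924431 for Hamp2. Capitals mark GGCGCC, the core of a BMP-responsive element, and TTCTTGGAA, a match to the STAT motif TTCNNNGAA. Both motifs are their own reverse complements, so each match holds on both strands.
Hamp: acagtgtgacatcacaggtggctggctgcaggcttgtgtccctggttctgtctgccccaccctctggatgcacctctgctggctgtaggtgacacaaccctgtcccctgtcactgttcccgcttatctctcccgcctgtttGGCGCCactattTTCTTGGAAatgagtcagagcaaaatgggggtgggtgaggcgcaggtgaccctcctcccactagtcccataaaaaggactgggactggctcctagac
Hamp2: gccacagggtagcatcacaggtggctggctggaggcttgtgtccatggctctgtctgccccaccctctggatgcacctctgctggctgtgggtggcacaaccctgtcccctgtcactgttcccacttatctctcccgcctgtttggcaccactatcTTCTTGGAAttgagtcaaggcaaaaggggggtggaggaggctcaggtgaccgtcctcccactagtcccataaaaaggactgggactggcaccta
The Hamp window held GGCGCC at -109 and TTCTTGGAA at -97 from the start, whereas the Hamp2 window held TTCTTGGAA at -94 and no GGCGCC. Of 32851 promoter windows in the table, trimmed to the same 250 bases, 9.59% held GGCGCC and 7.02% held TTCNNNGAA. A match is a description of letters and not of binding.

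The transcripts of Hamp and Hamp2 were identical at 388 of 410 aligned bases (94.6%), their coding sequences at 93.6% and the upstream windows at 91.9%. Reads that fit both genes could have been given to either one when the values were made, so the split between Hamp and Hamp2 is uncertain. A long noncoding RNA gene on the plus strand, Gm44662, also spans both hepcidin genes, and the strand of the libraries was not given in the sources used here. Fth1 and Ftl1 have processed pseudogenes that may share reads with them, the noncoding genes Gm10252 and Gm22133 overlap Ftl1, and Bmp6 overlaps the antisense gene 4930579J19Rik and the end of Txndc5.

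Iron-responsive elements are shown for the 4 members in which a search found them, because ferritin, ferroportin and Tfrc share this element and Hamp, Hamp2 and Bmp6 had none. The search used the GENCODE transcripts of GRCm38 and asked for a bulged C, a stem of 5 paired bases and the loop CAGTGN with no G in the last place, and capitals mark the loop.
Tfrc site 1: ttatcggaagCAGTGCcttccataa
Tfrc site 2: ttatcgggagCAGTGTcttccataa
Tfrc site 3: atatcggagaCAGTGAtctccatat
Tfrc site 4: ttatcgggaaCAGTGTttcccataa
Fth1: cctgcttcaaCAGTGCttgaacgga
Ftl1: cttgcttcaaCAGTGTttgaacgga
Slc40a1: acttcagctaCAGTGTtagctaagt
The 4 sites of Tfrc lay in exon 19, in the 3′ UTR, at chr16:32631221-32631245, chr16:32631600-32631624, chr16:32631665-32631689 and chr16:32631712-32631736 on the plus strand. The sites of Fth1 (chr19:9982734-9982758, plus strand), Ftl1 (chr7:45459781-45459805, minus strand) and Slc40a1 (chr1:45925467-45925491, minus strand) lay in exon 1, in the 5′ UTR. The same pattern occurred in 222 of 21877 genes (1.01%).

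Values were deposited as FPKM, the sequenced fragments of a gene scaled by transcript length and library size. With no counts in the table, no counting error is given for a value. Differences are given as HFD minus CD on the log2(FPKM + 1) scale, which understates changes of low genes. They were tested with limma across all genes with at least 1 FPKM in 4 libraries, and a gene was called at a Benjamini-Hochberg adjusted p under 0.05. With 4 mice per group, p-values measure the spread among these mice, and in bulk tissue fewer cells of a type and less RNA per cell cannot be told apart. Liver libraries held 6 of 6 hepatocyte markers, with summed levels of 32957 to 75551 FPKM, and islet libraries 6 of 6 beta cell markers, with 575988 to 993770 FPKM. Beta cell markers summed to at most 0.1 FPKM in some liver groups but reached 3701 FPKM in 1 CD liver at week 12. Hamp was listed at 0 in most islet libraries, and the highest of them reached 0.66 FPKM.

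Between tissues, the members separated into genes of the liver and genes of both tissues. In the livers of CD mice, mean FPKM over 24 libraries was highest for Ftl1 (3704 ± 1076 SD), followed by Fth1 (1501 ± 224), Hamp (803 ± 678), Hamp2 (72.8 ± 74.6), Slc40a1 (35.7 ± 8.38), Tfrc (3.798 ± 1.17) and Bmp6 (1.07 ± 0.364). In CD livers the ranges of Ftl1 and Fth1 did not overlap. That of Hamp overlapped those of Ftl1, Fth1 and Hamp2, and that of Hamp2 also overlapped those of Slc40a1, Tfrc and Bmp6. In islets of CD mice the order was Ftl1 (1196 ± 183), Fth1 (409 ± 50.6), Tfrc (14.2 ± 3.73), Slc40a1 (11.6 ± 2.33), Hamp2 (5.52 ± 4.67), Bmp6 (1.39 ± 0.229) and Hamp (0.0400 ± 0.0680). The ranges of Tfrc, Slc40a1 and Hamp2 overlapped in CD islets, as did those of Hamp2 and Bmp6.

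Hamp passed the filter of this comparison through the liver alone. The other 6 members all differed between islets and liver of CD mice, as did 95.0% of the 13346 genes tested. Tfrc was higher in islets (log2 difference, islet minus liver, of 1.66, SE 0.13, 3.17-fold, adjusted p = 4.68e-21). Fth1 (-1.87, SE 0.048), Ftl1 (-1.60, SE 0.055), Slc40a1 (-1.53, SE 0.077) and Hamp2 (-2.70, SE 0.29) were lower in islets, with adjusted p of 3.98e-14 at most. Hamp was far lower in islets, but with islet libraries listed at 0 no fold is given. Bmp6 was 0.22 higher in islets (adjusted p = 8.79e-05), and this direction turned with median ratio scaling of the libraries (-0.19, adjusted p = 0.000551). Under that scaling the median difference of all genes moved from 0.64 to 0.04 and the share of calls that were higher in islets from 70.0% to 51.6%. The other 6 members kept their direction under it.

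In liver, Hamp was the member that HFD changed most. Over the 6 weeks its mean log2 difference was -1.77 (SE 0.48, 3.40-fold lower in HFD, adjusted p = 0.00323), and Hamp was lower in HFD in 5 of 6 weeks. It stayed called without any one liver, with differences of -1.95 to -1.44. Averaged over weeks, 4 of 7 members were called in liver, against 42.6% of all 10879 genes tested, and the share of members called was thus near that background. Hamp was the only member that also passed an absolute log2 difference of 1, a rule met by 0.882% of genes. Of all genes, 6.78% were called lower in HFD and 35.8% higher. Under median ratio scaling the share of liver calls that were higher moved from 84.1% to 45.1%, and Hamp then differed by -1.88 (adjusted p = 0.00194).

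At week 8, Hamp in liver was at 1887, 2338, 2735 and 1012 FPKM in the CD mice. In the HFD mice it was at 196, 52.6, 244 and 343 FPKM. Every HFD mouse was thus below every CD mouse, which held for 3.69% of genes at that week. The log2 difference was -3.44 (SE 0.58, 10.8-fold lower, adjusted p = 0.0138), and 2 of 6 members tested were called at week 8, against 7.49% of genes (1.33% called lower). Hamp alone of them also passed an absolute log2 difference of 1, as 1.26% of genes did. Hamp lost its call without mouse CD207 (-3.25, adjusted p = 0.0509) and with the spread estimated from all 12 liver groups (adjusted p = 0.0737). The summed level of Hamp and Hamp2 depends less on how reads were split between them, though their transcript lengths differ (410 and 437 bases). This sum averaged 2088 FPKM in the CD livers (SD 769, n = 4) and 260.2 FPKM in the HFD livers (SD 149). Hamp itself averaged 1993 FPKM in CD livers at week 8, above its means of 417 to 786 FPKM at the other CD weeks. Its HFD means ran from 141 to 603 FPKM over the 6 weeks, with 209 FPKM at week 8.

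At weeks 16 and 4 the mean of Hamp was also lower in HFD livers, but Hamp was not called. At week 16, Hamp in CD livers was at 337, 732, 307.1 and 552 FPKM, and in HFD livers at 127, 30.9, 183 and 224 FPKM. The groups again did not overlap, with HFD below CD as in 1.97% of genes, but the difference did not pass the test (-1.99, SE 0.65, adjusted p = 0.126). At week 4, Hamp in CD livers was at 647, 291, 1465 and 742 FPKM and in HFD livers at 337, 18.1, 547 and 7.67 FPKM. Here 2 HFD livers were far below all others and the other two were among the CD values (-3.18, SE 1.27, adjusted p = 0.343).

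The diets did not separate for Hamp at weeks 12, 20 and 24. At week 12, Hamp was at 1058, 566, 430.4 and 307.3 FPKM in CD and at 415, 654, 440.5 and 276 FPKM in HFD livers (-0.32, adjusted p = 0.625). At week 20, it was at 665, 1103, 263 and 159 FPKM in CD and at 1.02, 138, 516.9 and 1111 FPKM in HFD livers (-1.90, SE 1.95, adjusted p = 0.729). The lowest Hamp level of all 48 livers, 1.02 FPKM, belonged to mouse HFD511, and without it the week 20 difference was 0.04. At week 24, Hamp was at 386, 439, 199.8 and 643 FPKM in CD and at 667, 1305, 176 and 264 FPKM in HFD livers, where the HFD mean was the higher one (0.22, adjusted p = 0.918). The HFD effect of weeks 4 to 12 minus that of weeks 16 to 24 was -1.09 for Hamp (SE 0.96, adjusted p = 0.846), so a difference between early and late weeks was not detectable with this spread.

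**Figure D1:**
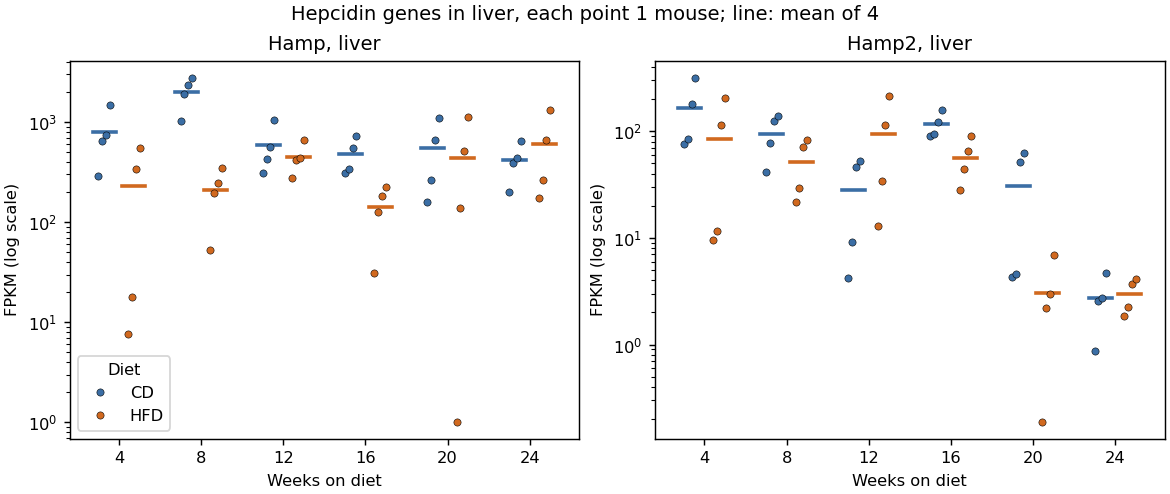
Liver levels of Hamp and Hamp2 in FPKM on a log axis against weeks on diet, with 1 point per mouse (4 per diet and week) for CD and HFD and a bar at each group mean. At week 8 the 4 HFD livers lie between 52.6 and 343 FPKM of Hamp, all below the CD livers at 1012 to 2735 FPKM, and Hamp2 of both diets lies at or below 4.66 FPKM at week 24.

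Acute-phase genes, which inflammation induces along with Hamp, differed between some of the same groups. The summed level of 5 of 5 acute-phase markers was 72.3 to 163 FPKM in CD and 317.9 to 600.3 FPKM in HFD livers at week 8, the opposite direction to Hamp. At week 4 its median was lower in HFD, as that of Hamp was, at 5253 FPKM in CD (1282 to 35971) and 706 FPKM in HFD livers (298 to 2930). The same direction held at week 16, with medians of 8190 FPKM in CD (507.2 to 11813) and 1316 FPKM in HFD livers (1002 to 1848). The ranges overlapped at weeks 4 and 16 and not at week 8. Across the 48 livers, after subtraction of group means, Hamp and the summed acute-phase level gave Pearson r = 0.10 and Spearman rho = -0.17 (permutation p = 0.745 and 0.362), a relation computed after the data were seen, as 1 of 4 (adjusted p = 0.745 and 0.483). Without the 2 mice farthest from the median, r was -0.18 (permutation p = 0.355). The part of inflammation in the Hamp differences was not tested.

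Hamp2, a second hepcidin gene of the mouse whose peptide has not been shown to control iron, was marked by the weeks more than by the diet. In CD livers, Hamp2 was at 75.8, 85.5, 314 and 182 FPKM at week 4 and at 2.76, 2.57, 0.87 and 4.66 FPKM at week 24. The log2 difference of week 24 minus week 4 was -5.34 (SE 0.88, 40.5-fold lower, adjusted p = 3.48e-05). Of the 7 members, 4 were called between these weeks on CD, against 36.7% of genes (22.0% higher and 14.8% lower). Hamp2 was the only one past an absolute log2 difference of 1, which 2.32% of genes passed. Leaving out each liver in turn kept the Hamp2 difference between -5.63 and -4.95.

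Levels of Hamp2 between those weeks did not fall steadily. In CD livers Hamp2 was at 41.1 to 139 FPKM at week 8, 4.19 to 52.8 at week 12, 89.5 to 157 at week 16 and 4.34 to 63.0 at week 20. The F test over the 6 CD weeks called Hamp2 (adjusted p = 4.17e-05), Ftl1 and Slc40a1, that is 3 of 7 members against 55.0% of genes, and not Hamp (adjusted p = 0.460). Hamp held 77.3% to 89.5% of the summed Hamp and Hamp2 level in CD livers at week 4 and 99.3% to 99.6% at week 24. The age of the mice and the collection day both move with the week, and the part of either in these changes was not tested.

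The diet did not change Hamp2 in liver by the test. Its mean difference over the 6 weeks was -0.74 (SE 0.36, adjusted p = 0.0983), and it was lower in HFD in 4 of 6 weeks. At week 16, Hamp2 was at 94.3, 157, 89.5 and 122 FPKM in CD and at 28.3, 44.0, 65.2 and 89.3 FPKM in HFD livers, with no overlap by a narrow margin (-1.10, SE 0.34, adjusted p = 0.0988). At week 12 the HFD mean was the higher one, at 93.3 ± 90.8 FPKM against 28.1 ± 25.0 FPKM in CD (1.62, SE 1.12, adjusted p = 0.367).

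Bmp6, the endothelial signal upstream of hepcidin, was expressed near the detection filter in liver. It reached 1 FPKM in 12 of 24 CD and 5 of 24 HFD livers, with means of 1.07 ± 0.364 and 0.830 ± 0.251 FPKM, and ranges of 0.44 to 1.88 and 0.48 to 1.60 FPKM that overlapped widely. The mean difference over 6 weeks was small and passed the test (-0.17, SE 0.056, adjusted p = 0.0127). At week 16, Bmp6 was at 0.99, 1.70, 0.96 and 0.86 FPKM in CD and at 0.63, 0.82, 0.58 and 0.66 FPKM in HFD livers. At week 24, it was at 1.00, 0.73, 0.85 and 1.15 FPKM in CD and at 0.48, 0.58, 0.71 and 0.69 FPKM in HFD livers. All HFD livers were below all CD livers at both weeks, as in 1.97% and 1.92% of genes, but too few libraries reached 1 FPKM for a weekly test of Bmp6 other than at weeks 4 and 12.

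Week 4 was the exception, with a higher Bmp6 mean in HFD livers. Bmp6 was at 0.44, 0.87, 1.20 and 0.49 FPKM in CD and at 1.60, 0.90, 1.12 and 1.03 FPKM in HFD livers (0.32, SE 0.16, adjusted p = 0.440). The summed level of 6 of 6 markers of sinusoidal endothelial cells, which make BMP6, was also higher in HFD at week 4, with a median of 48.1 FPKM (26.9 to 76.5) in CD and 83.5 FPKM (67.5 to 90.9) in HFD livers. At week 24 the marker sum was lower in HFD, as Bmp6 was, at 60.4 FPKM (52.5 to 79.7) in CD and 47.0 FPKM (40.3 to 57.2) in HFD livers. At week 16 it was close, at 57.9 and 56.4 FPKM, while Bmp6 was lower in HFD. Over all weeks its median was 62.9 FPKM in CD and 59.8 FPKM in HFD livers. The part of endothelial cells in the Bmp6 levels was not tested. Hamp and Bmp6 did not vary together across the 48 livers (r = 0.06, rho = 0.12, permutation p = 0.689 and 0.471).

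Slc40a1, which exports iron from hepatocytes and macrophages, changed with the weeks on CD and not by the test with the diet. In CD livers, Slc40a1 was at 26.9, 21.1, 19.6 and 25.6 FPKM at week 4 and at 41.1, 36.0, 37.6 and 43.1 FPKM at week 24. Slc40a1 thus rose by 0.74 on the log2 scale (SE 0.18, 1.68-fold, adjusted p = 0.00151), staying called without any one liver. Between these weeks on CD, 22.0% of all liver genes were called higher. HFD livers at week 4 were already at 27.0, 30.7, 33.5 and 30.2 FPKM, all above the CD livers (0.38, SE 0.12, adjusted p = 0.263), as in 5.85% of genes at that week. At week 12 the HFD livers, at 38.2, 39.4, 30.2 and 26.6 FPKM, were all below the CD livers, at 40.9, 43.4, 40.5 and 47.2 FPKM (-0.36, SE 0.13, adjusted p = 0.0959), as in 3.49% of genes.

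The mean difference of Slc40a1 over 6 weeks was -0.10 (SE 0.072, adjusted p = 0.262). Median ratio scaling made it -0.22 and a call (adjusted p = 0.0128). Kupffer cells are macrophages that export recycled iron, and the summed level of 8 of 8 of their markers had a median of 70.8 FPKM (37.7 to 139) in CD and 98.6 FPKM (46.9 to 189.8) in HFD livers, ranges that overlapped. By week the median was higher in HFD at weeks 4, 12, 16 and 20 and lower at week 8 (70.8 FPKM in CD, 60.4 FPKM in HFD) and week 24 (113.8 and 103.7 FPKM). The weekly ranges did not overlap at week 12 (39.4 to 62.9 FPKM in CD, 76.2 to 189.8 FPKM in HFD). Nor did they at week 20 (82.3 to 105.5 and 131.8 to 169.5 FPKM), while they overlapped at the other weeks. The part of Kupffer cells in the levels of Slc40a1 and ferritin was not tested.

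**Figure D2:**
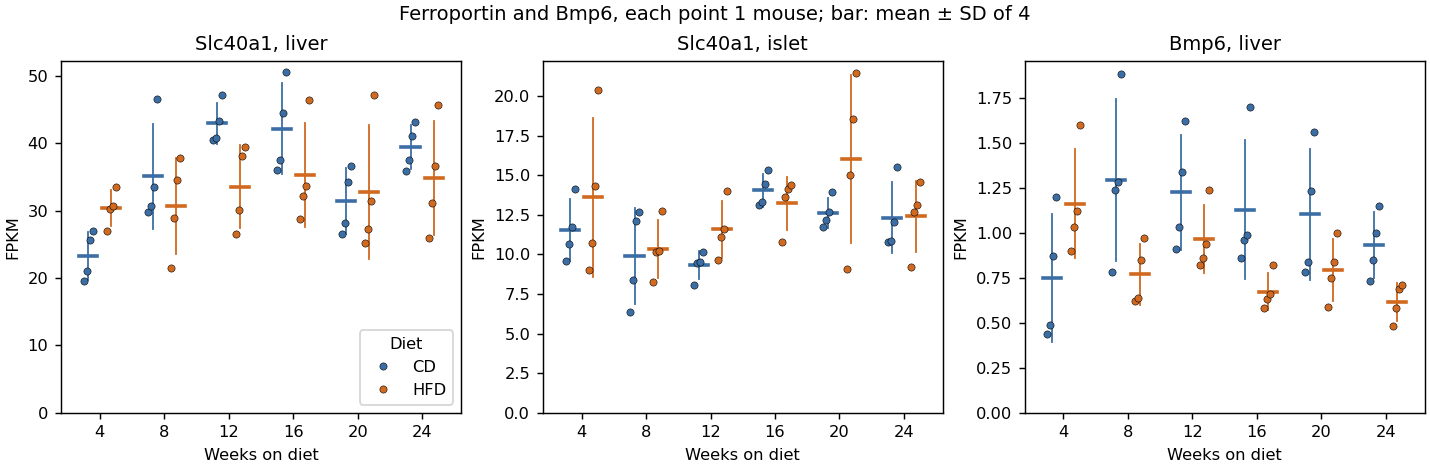
Levels in FPKM of Slc40a1 in liver and islets and of Bmp6 in liver against weeks on diet, with 1 point per mouse (4 per diet and week) and the group mean with its SD. Slc40a1 in CD livers lies at 19.6 to 26.9 FPKM at week 4 and 36.0 to 43.1 FPKM at week 24, and Bmp6 in liver stays at or below 1.88 FPKM.

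Tfrc, which takes up transferrin-bound iron, was higher on average in HFD livers. Its mean was 3.798 ± 1.17 FPKM in CD and 5.93 ± 4.06 FPKM in HFD livers (n = 24 each). The difference over 6 weeks was 0.40 (SE 0.16, adjusted p = 0.0403), with HFD higher in 5 of 6 weeks, and no single week passed the test. The call was narrow, since it was lost in 22 of 48 fits that left out 1 liver and under median ratio scaling (0.30, adjusted p = 0.111). At week 20, Tfrc was at 4.44, 3.46, 2.38 and 2.69 FPKM in CD and at 21.8, 4.41, 4.78 and 2.15 FPKM in HFD livers. The high value belonged to HFD511, the mouse with the lowest Hamp and Hamp2 (0.19 FPKM), and without it the 6-week difference was 0.30 (adjusted p = 0.0632).

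Of the ferritin chains, which together form the shell that stores iron, Fth1 rose with HFD in liver. At week 8, Fth1 was at 1430, 1385, 1482 and 1274 FPKM in CD and at 2222, 2359, 2299 and 1550 FPKM in HFD livers. All HFD livers were above all CD livers, as in 11.4% of genes, and the difference was 0.58 (SE 0.14, 1.49-fold, adjusted p = 0.0392). At week 16, Fth1 was at 1506, 1288, 1351 and 1407 FPKM in CD and at 1647, 2218, 2025 and 2226 FPKM in HFD livers (0.54, SE 0.12, 1.45-fold, adjusted p = 0.0221), without overlap as in 11.9% of genes. Fth1 was the only one of 6 members tested that was called at week 16, against 7.43% of genes (6.74% higher). These calls lost the threshold in 7 of 8 and 6 of 8 fits that left out 1 liver, whether the filter then asked for 1 FPKM in 3 or in 4 libraries, with differences of 0.52 to 0.72 at week 8 and 0.49 to 0.64 at week 16.

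Over the 6 weeks Fth1 differed by 0.31 (SE 0.057, 1.24-fold, adjusted p = 2.39e-05), or by 0.20 under median ratio scaling (adjusted p = 0.00422), and it stayed called without any one liver. It was higher in HFD in 5 of 6 weeks, and at week 4 the difference was -0.24 (adjusted p = 0.496). Ftl1 in liver did not change by the test over the 6 weeks (0.06, SE 0.067, adjusted p = 0.532), and its sign turned under median ratio scaling (-0.06). The ferritin chains were nevertheless close across livers, with Pearson r = 0.76 and Spearman rho = 0.69 between Fth1 and Ftl1 after subtraction of group means (permutation p = 2e-05 and 4e-05, adjusted over 10 relations to 0.0002 and 0.0004).

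In CD livers both chains were highest at week 4. Ftl1 was at 4061, 6333, 7253 and 4488 FPKM at week 4 and at 2914, 3042, 3197 and 3573 FPKM at week 24 (-0.76, SE 0.16, 1.70-fold lower, adjusted p = 0.000551). Between these weeks on CD, 14.8% of all liver genes were called lower. Fth1 was at 1539, 1865, 2275 and 1749 FPKM at week 4 and at 1277, 1541, 1301 and 1471 FPKM at week 24 (-0.40, SE 0.14, adjusted p = 0.0227), where a single value overlapped, and its call was lost in 4 of 48 fits that left out 1 liver. Hamp, by contrast, had no called difference between these weeks on CD (-0.81, SE 1.18, adjusted p = 0.615).

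In liver, no member was called at weeks 4, 12, 20 and 24 by limma, where 0.0506%, 10.6%, 2.47% and 0.837% of genes were. At an unadjusted p under 0.05 the members numbered 2 of 7 at week 4, 2 of 7 at week 12, 1 of 6 at week 20 and 0 of 6 at week 24. No liver member was called for early against late weeks, against 0.175% of genes, and 0 of 7 had an unadjusted p under 0.05.

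In islets, the ferritin chains were the members that HFD changed most regularly. Over the 6 weeks 3 of 6 members tested were called, all higher in HFD, namely Fth1, Ftl1 and Tfrc. Of all 12378 genes, 38.6% were called, 16.6% higher and 22.0% lower, and 0.267% also passed an absolute log2 difference of 1, which no member did. Fth1 averaged 409 ± 50.6 FPKM in CD and 491 ± 86.4 FPKM in HFD islets (0.25, SE 0.039, 1.19-fold, adjusted p = 1.79e-06). Ftl1 averaged 1196 ± 183 FPKM in CD and 1436 ± 282 FPKM in HFD islets (0.25, SE 0.040, 1.19-fold, adjusted p = 3.59e-06). Ftl1 was higher in HFD in 6 of 6 weeks and Fth1 in 5 of 6, and both stayed called without any one mouse and under the other library scalings.

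The islet differences of the ferritin chains stood out by week at weeks 20 and 24. At week 24, Fth1 was at 395, 396, 392 and 376 FPKM in CD and at 515, 463, 532 and 479 FPKM in HFD islets (0.35, SE 0.074, adjusted p = 0.00787). At the same week, Ftl1 was at 1181, 1229, 1272 and 1166 FPKM in CD and at 1621, 1515, 1582 and 1601 FPKM in HFD islets (0.38, SE 0.073, adjusted p = 0.00390). Neither gene overlapped between the diets, as in 13.7% of genes with HFD above CD, and both stayed called without any one mouse. Under median ratio scaling neither passed the test at week 24 (0.28 and 0.31, adjusted p = 0.0781 and 0.108). In all, 3 of 6 members tested were called at week 24, against 8.30% of genes (6.57% higher).

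At week 20, Fth1 was at 407.2, 405.4, 448 and 379 FPKM in CD and at 492, 564, 588 and 564 FPKM in HFD islets (0.43, SE 0.079, adjusted p = 0.0185). Ftl1 at that week was at 1247, 1195, 1437 and 1254 FPKM in CD and at 1440, 1927, 1984 and 1852 FPKM in HFD islets (0.48, SE 0.11, adjusted p = 0.0415). The lowest HFD islet of Ftl1 was just above the highest CD islet, and no overlap with HFD above CD held for 4.84% of genes. The week 20 calls were lost in 5 of 8 fits for Fth1 and 7 of 8 for Ftl1 when 1 mouse was left out. With Hamp2, 3 of 6 members tested were called at week 20, against 4.74% of genes (1.53% higher).

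At week 16, Fth1 was at 387, 439, 409 and 510.3 FPKM in CD and at 540.5, 553, 513 and 520.0 FPKM in HFD islets. The highest CD islet lay just under the lowest HFD islet, with HFD above CD as in 6.64% of genes, and the difference was 0.29 (SE 0.078, adjusted p = 0.0332), lost in 6 of 8 fits without 1 mouse. Fth1 was the only member of 6 called at week 16, where 8.45% of genes were (3.30% higher). No member was called in islets at weeks 4, 8 and 12, against 0.0%, 5.27% and 4.53% of genes, and 0 of 6, 0 of 6 and 3 of 6 members had an unadjusted p under 0.05. At week 4, no gene at all was called by limma in islets, and 854 of 11569 genes had an unadjusted p under 0.05.

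Tfrc in islets was called at week 24. It was at 14.8, 13.3, 12.0 and 12.9 FPKM in CD and at 20.5, 18.5, 21.2 and 15.2 FPKM in HFD islets. All HFD islets were above all CD islets, the lowest by a narrow margin (0.47, SE 0.10, 1.38-fold, adjusted p = 0.00984), and the call held without any one mouse but not with the spread of all 12 islet groups (adjusted p = 0.0772). The 6-week mean of Tfrc differed by 0.19 (SE 0.073, adjusted p = 0.0410), a call lost in 23 of 48 fits without 1 mouse. Weeks differed more than diets, since Tfrc in CD islets ranged from 6.93 to 11.7 FPKM at week 12 and from 15.1 to 24.9 FPKM at week 16. The F test over CD weeks called Tfrc (adjusted p = 0.000816), Hamp2, Fth1 and Ftl1 in islets, 4 of 6 members against 77.5% of genes.

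**Figure D3:**
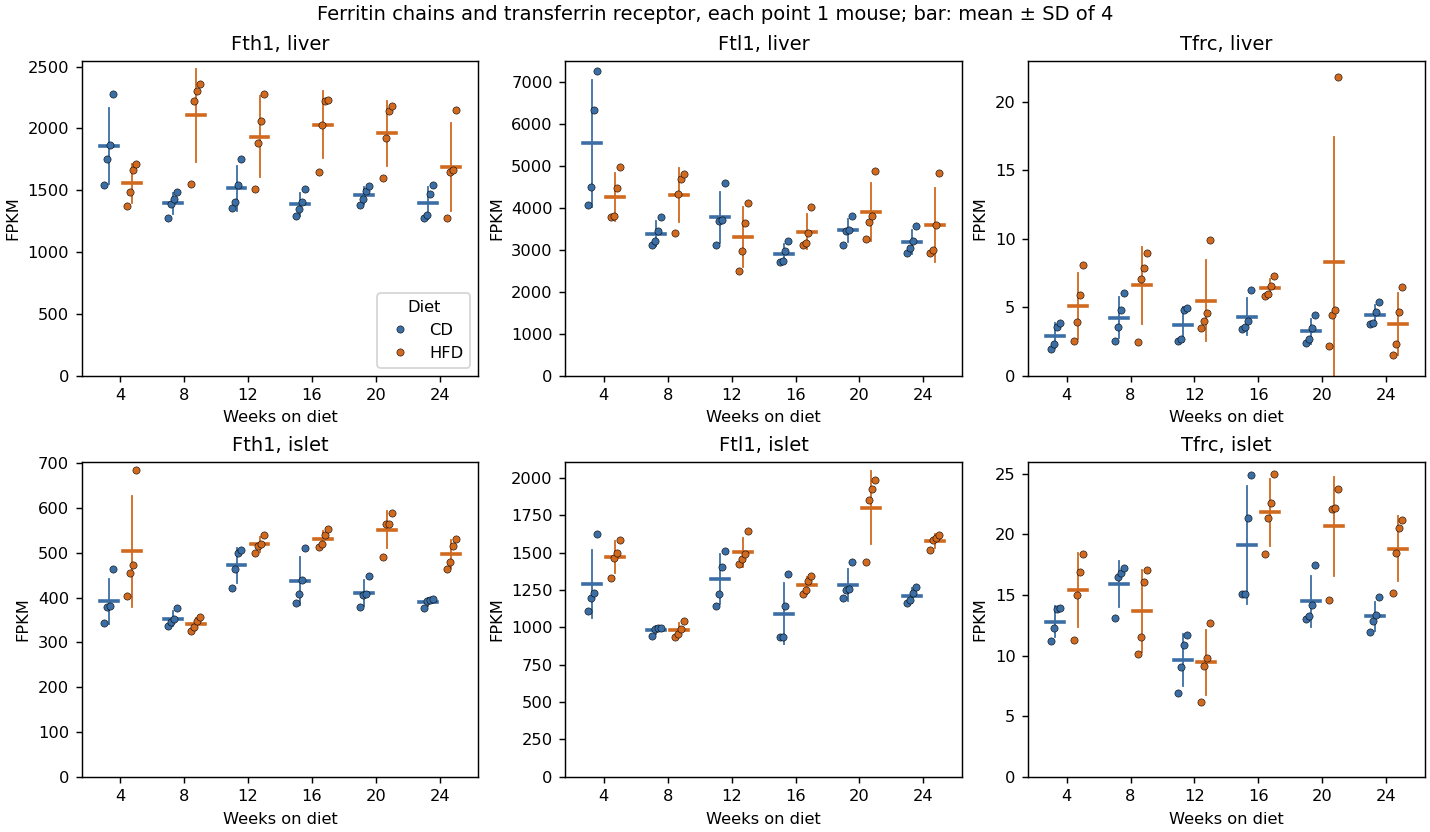
Levels of Fth1, Ftl1 and Tfrc in FPKM in liver and islets against weeks on diet, with 1 point per mouse (4 per diet and week) and the group mean with its SD, whose lower end is drawn to 0 at most. Fth1 in islets lies at 376 to 396 FPKM in CD and 463 to 532 FPKM in HFD at week 24, and the single high Tfrc point in liver at week 20 is HFD511 at 21.8 FPKM.

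Markers of other cells also differed between the islet groups. Alpha cell markers, 4 of 4 found, had a median sum of 12619 FPKM in CD and 5002 FPKM in HFD islets. Their median was 12012 FPKM in CD and 2531 FPKM in HFD islets at week 16. It was 9991 and 2137 FPKM at week 20, and 11627 and 1623 FPKM at week 24. The diets did not overlap at these weeks, in which the ferritin and Tfrc calls fell. They did not overlap either at week 8 (11330 to 13558 FPKM in CD, 6926 to 10219 FPKM in HFD). The same held at week 12 (12902 to 14223 and 4910 to 6476 FPKM), and no ferritin or Tfrc call fell at weeks 8 and 12. The part of alpha cells in those calls was not tested. The summed level of 5 of 5 red blood cell markers had a median of 161 FPKM (73.4 to 326) in CD and 315.3 FPKM (89.3 to 900.5) in HFD islets, and no marker was listed at 0. By week the red cell sums did not overlap at week 16 (119 to 169 FPKM in CD, 242 to 332 FPKM in HFD). Nor did they at week 20 (145 to 282 and 386 to 678 FPKM), while they overlapped at the other weeks. The part of blood cells in the ferritin calls was not tested. Red cell precursors are rich in Tfrc, and across the 48 islet samples Tfrc and the red cell sum gave r = 0.10 and rho = 0.04 (permutation p = 0.583 and 0.797, adjusted p = 0.745 and 0.797 over the 4 relations chosen after the data were seen). Macrophage markers, 8 of 8 found, summed to a median of 8.98 FPKM (6.30 to 14.4) in CD and 9.19 FPKM (5.04 to 16.2) in HFD islets, with the Kupffer marker Clec4f at 0 in 37 of 48. Islet Fth1 and the macrophage sum gave r = 0.49 and rho = 0.44 (permutation p = 0.00565 and 0.00876, adjusted p = 0.0113 and 0.0175). This relation rested in part on 2 mice, without which r was 0.35 (adjusted permutation p = 0.164).

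Beta cell transcripts took up most of each islet library, with a median marker sum of 664537 FPKM in CD and 783506 FPKM in HFD islets, so the level of any other gene also depended on them. With Ins1 and Ins2 left out of the library total, the share of islet calls that were higher in HFD moved from 43.1% to 77.4%, and under median ratio scaling to 59.7%. The 6-week differences of Fth1, Ftl1 and Tfrc then became 0.34, 0.34 and 0.27 without the insulin genes and 0.28, 0.29 and 0.22 under median ratio scaling, all called.

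Slc40a1 and Bmp6 did not change with HFD in islets by the test. Slc40a1 averaged 11.6 ± 2.33 FPKM in CD and 12.9 ± 3.49 FPKM in HFD islets (0.12, SE 0.081, adjusted p = 0.237), and it was called without the insulin genes in the total (0.21, adjusted p = 0.0353). Bmp6 averaged 1.39 ± 0.229 FPKM in CD and 1.38 ± 0.338 FPKM in HFD islets (-0.01, SE 0.048, adjusted p = 0.884), with a sign that turned under both other scalings (0.01 and 0.04).

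Between week 4 and week 24 on CD, no islet member was called by limma, against 31.6% of genes, and 0 of 6 had an unadjusted p under 0.05. For early against late weeks no islet member was called either, against 3.16% of genes, although Tfrc (-0.39), Fth1 (-0.21) and Ftl1 (-0.24) had an unadjusted p under 0.05. The smallest of their adjusted p-values was 0.0931, for Ftl1.

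Hamp was all but absent from islets. It was listed at 0 in 17 of 24 CD and 13 of 24 HFD islets and never reached 1 FPKM, so it was not tested by diet there. The 3 highest values, 0.66, 0.61 and 0.45 FPKM, came from HFD islets in which the hepatocyte gene Alb was at 48.8, 13.0 and 14.5 FPKM, against a median Alb of 0.84 FPKM over all islet samples. Apoa1, another hepatocyte gene, was at 11.1, 2.48 and 16.3 FPKM in them, against a median of 0.86 FPKM. The highest islet Apoa1, 109 FPKM, belonged to a different islet sample. The part of hepatocyte RNA in these Hamp values was not tested.

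Hamp2, which is known to be expressed in the pancreas as well as in the liver, was present in every islet library, at 0.45 to 19.9 FPKM. At week 12 it was at 19.9, 9.31, 8.39 and 14.4 FPKM in CD and at 4.73, 7.27, 1.51 and 4.30 FPKM in HFD islets (-1.41, SE 0.44, adjusted p = 0.170). At week 16 it was at 10.2, 7.84, 5.35 and 7.10 FPKM in CD and at 1.95, 0.73, 4.66 and 3.16 FPKM in HFD islets (-1.35, SE 0.39, adjusted p = 0.0965). HFD islets were below CD islets at both weeks without overlap, as in 3.47% and 8.77% of genes. At week 20 the order was turned around, with Hamp2 at 1.38, 3.01, 1.02 and 1.86 FPKM in CD and at 6.36, 3.29, 4.31 and 3.67 FPKM in HFD islets (0.96, SE 0.23, adjusted p = 0.0490). That call was lost in 6 of 8 fits without 1 mouse and with the spread of all 12 islet groups (adjusted p = 0.149). With that shared spread the week 12 and week 16 differences of Hamp2 were called instead (adjusted p = 0.0280 and 0.0410, against 9.85% and 7.76% of genes called in that fit). Over the 6 weeks the difference was -0.39 (SE 0.17, adjusted p = 0.0743).

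Acinar markers, from the exocrine cells that surround islets, moved with Hamp2 at each of these weeks. The summed level of 6 of 6 acinar markers had a median of 29806 FPKM in CD against 12843 FPKM in HFD islets at week 12, 15704 against 6207 FPKM at week 16, and 4696 against 8607 FPKM at week 20. Across the 48 islet samples, after subtraction of group means, Hamp2 and the acinar sum gave r = 0.91 and rho = 0.89. The permutation p of both was 1e-05, the smallest that 100000 resamples can give (adjusted p = 4e-05 over the 4 relations chosen after the data were seen), and r was 0.86 without the 2 mice farthest from the median. Hamp2 per 1000 FPKM of acinar markers was 0.209 to 0.643 in CD islets (median 0.414) and 0.272 to 0.645 in HFD islets (median 0.423). The ratio covered similar ranges in both diets, and the part of acinar cells in the Hamp2 differences was not tested further.

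**Figure D4:**
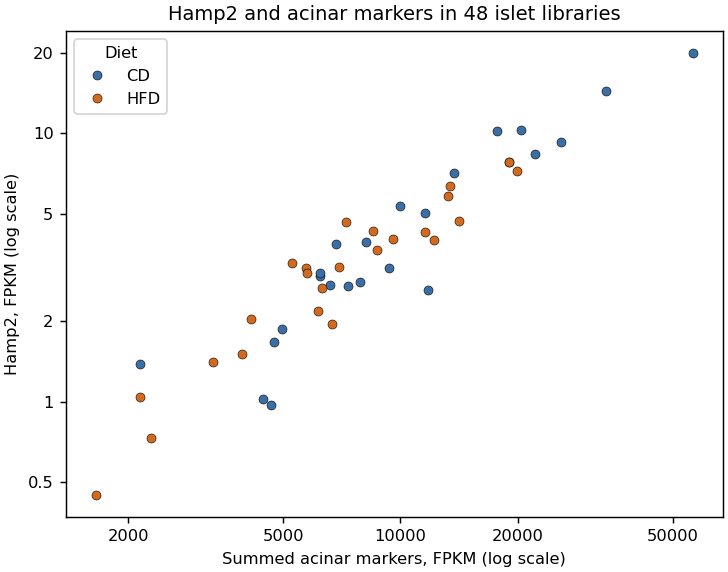
Islet Hamp2 in FPKM against the summed FPKM of 6 acinar markers, both on log axes, with 1 point per islet sample (24 CD and 24 HFD). The points form 1 band, in which Hamp2 per 1000 FPKM of acinar markers stays between 0.209 and 0.645 for both diets.

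The HFD effect was then compared between the tissues of the same mice. Hamp never reached 1 FPKM in islets and passed the filter through the liver alone, so for Hamp this comparison would only restate the liver difference and is not read as a test. Of the other 6 members Ftl1 alone was called, against 43.9% of all genes (8.42% in this direction and 35.5% in the other). Its islet effect minus its liver effect was 0.20 (SE 0.078, adjusted p = 0.0346), a call lost in 13 of 48 fits that left out 1 mouse. Slc40a1 and Bmp6 were called as well under either other scaling. With the mouse as a replicate block, Bmp6 was also called (0.16, adjusted p = 0.0497). Fth1 (-0.06, SE 0.069, with a sign that turned under both other scalings), Tfrc (-0.21, SE 0.18) and Hamp2 (0.35, SE 0.40) had no called difference between tissues.

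Across mice, Tfrc in islets and in liver of the same animal gave r = 0.24 and rho = 0.26 (permutation p = 0.203 and 0.138), and Fth1 gave r = -0.01 and rho = -0.02 (permutation p = 0.928 and 0.908). Neither member thus varied in parallel between the tissues beyond what the permutations gave.

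**Figure D5:**
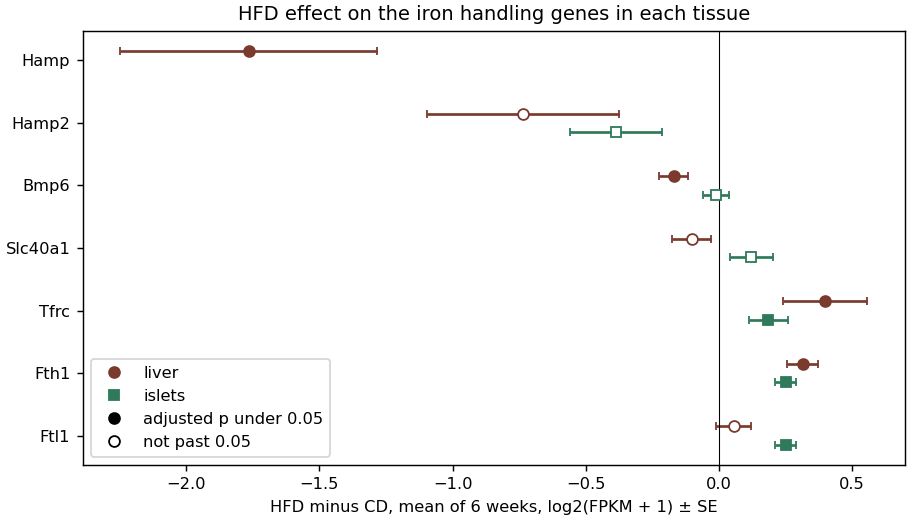
HFD minus CD differences of the members on the log2(FPKM + 1) scale with SE, averaged over the 6 weeks, in liver and islets. Hamp in liver lies at -1.77, Fth1 lies at 0.31 in liver and 0.25 in islets, and Ftl1 lies at 0.06 in liver and 0.25 in islets.

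Of 10 relations across mice that were corrected together, the pair between tissues given above and the others within liver, 3 passed for Pearson's r, over 48 mice and after subtraction of group means. Hamp and Hamp2 gave r = 0.56 and rho = 0.58 (permutation p = 0.00106 and 0.00069, adjusted p = 0.0053 and 0.00345), and r was 0.50 without HFD118 and HFD511. Hamp and Id1, a target gene of BMP and SMAD signalling, gave r = 0.41 and rho = 0.43 (permutation p = 0.00636 and 0.00593, adjusted p = 0.0212 and 0.0198). Without the same 2 mice r fell to 0.26 (adjusted permutation p = 0.190), so that relation rested on them. The third was that of Fth1 and Ftl1, given above, whose r was 0.72 without HFD217 and HFD611.

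The other relations did not pass for Pearson's r. Hamp and Smad7, another target of the pathway, gave r = 0.29 and rho = 0.40 (permutation p = 0.0627 and 0.00966, adjusted p = 0.125 and 0.0242), and r was 0.28 and rho 0.30 without HFD118 and HFD511 (adjusted permutation p = 0.190 and 0.151). Hamp and Tfrc gave r = -0.50 and rho = -0.27 (permutation p = 0.0503 and 0.117), and r was -0.26 without HFD118 and HFD511. Hamp and Slc40a1 gave r = 0.02 and rho = -0.01 (permutation p = 0.918 and 0.943), and Tfrc and Fth1 gave r = 0.15 and rho = 0.02 (permutation p = 0.441 and 0.892).

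Among 10879 liver genes, those whose levels were most like Hamp across the 48 livers, again after subtraction of group means, were Lbhd1 (r = 0.58), Hamp2 (r = 0.56), Npm3 (r = 0.52), Id3 (r = 0.51) and Cldn14 (r = 0.50). The libraries share their depth and composition across genes. Id3, a target gene of BMP and SMAD signalling, was also lower with Hamp at week 8, at 72.2 ± 42.6 FPKM in CD and 20.5 ± 2.69 FPKM in HFD livers (-1.59, SE 0.37, adjusted p = 0.0408). Over the 6 weeks Id3 did not differ by the test (-0.13, adjusted p = 0.559).

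Around the members, 73 further genes of iron and haem handling were listed by role. In liver 69 were tested, of which 26 were higher and 9 lower in HFD, with a median difference of 0.08 that equalled that of all genes (0.08). Those counts stood beside 35.8% higher and 6.78% lower over all liver genes, and under median ratio scaling the share of all liver calls that were higher moved from 84.1% to 45.1%. Of the receptors and secreted regulators that act on hepcidin, 3 of 11 were higher and 2 lower. One of those lower was Bmp2, a BMP ligand of endothelial cells and no receptor (-0.21, adjusted p = 0.0228). Hjv, the co-receptor of BMP6, was at 43.3 ± 6.11 FPKM in CD and 53.7 ± 8.24 FPKM in HFD livers (n = 24 each, 0.30, adjusted p = 1.70e-05). Tfr2, the sensor of transferrin-bound iron, was at 180.0 ± 35.8 FPKM in CD and 153 ± 29.0 FPKM in HFD livers (-0.23, adjusted p = 6.85e-05). Acvr1, a BMP receptor, was higher by 0.13 (adjusted p = 0.0163).

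In the SMAD branch downstream of BMP6, 2 of 10 genes were lower and none higher, beside 6.78% and 35.8% of all genes, and 8 were not called, among them the targets Id1, Id3 and Smad7. Atoh8, a transcription factor that activates Hamp, was at 9.93 ± 3.41 FPKM in CD and 7.36 ± 2.37 FPKM in HFD livers (-0.38, adjusted p = 0.00982), and Smad9 was at 1.98 ± 0.708 and 1.22 ± 0.662 FPKM (-0.45, adjusted p = 0.000861). Smad5 had the next smallest adjusted p (0.08, adjusted p = 0.0896). The median of this list was -0.05, against 0.08 over all genes. In the interleukin 6 branch 2 of 6 genes were higher, the receptor chain Il6st (0.26, adjusted p = 0.000557) and the kinase Jak1 (0.13, adjusted p = 0.00384), while Jak2 was not called (0.09, adjusted p = 0.160).

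Among the liver genes of iron uptake, 3 of 11 were higher and 2 lower, beside 35.8% and 6.78% of all liver genes. The ferrireductase Steap4 was at 41.3 ± 29.1 FPKM in CD and 83.1 ± 92.3 FPKM in HFD livers (0.86, adjusted p = 0.000120) and passed a log2 difference of 1 at weeks 12 and 16 (1.09 and 1.14, adjusted p = 0.0247 and 0.0317). The iron transporter Slc11a2 was higher by 0.37 over the 6 weeks (adjusted p = 1.06e-05), and its week 20 difference was 1.07 (adjusted p = 0.0151). The ferrireductase Steap2 was lower (-0.34, adjusted p = 1.02e-07), as was Cd163, the macrophage receptor for haemoglobin (-0.27, adjusted p = 0.00816), which was at 3.81 ± 1.26 FPKM in CD and 0.833 ± 0.531 FPKM in HFD livers at week 24 (-1.41, adjusted p = 0.0318). Of all liver genes, 10.6%, 7.43%, 2.47% and 0.837% were called at weeks 12, 16, 20 and 24, whatever the size of their difference.

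Iron sensing, storage and export genes stood beside the ferritin chains. The iron sensor Fbxl5 and the iron regulatory protein Aco1 were higher in HFD livers (0.27 and 0.22, adjusted p = 7.58e-07 and 7.50e-05), and the third gene of their list, Ireb2, was not called (0.08, adjusted p = 0.390). Of the storage genes, the iron chaperone Pcbp1 was higher (0.19, adjusted p = 0.000391) and Pcbp2 lower (-0.16, adjusted p = 0.00706), while Ncoa4, which delivers ferritin for breakdown, differed by 0.09 (adjusted p = 0.1804). The ferroxidase Cp, which works with ferroportin, differed by 0.14 (adjusted p = 0.245).

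Haem and iron-sulfur genes in liver followed. In haem synthesis 5 of 9 were higher and none lower, among them Uros (0.44, adjusted p = 2.80e-06), Cpox (0.31, adjusted p = 2.84e-05) and Alad (0.21, adjusted p = 0.00281). In haem transport and breakdown 5 of 6 were higher and 1 lower. Hmox1, which breaks haem down and frees its iron, was at 9.32 ± 6.16 FPKM in CD and 15.1 ± 7.14 FPKM in HFD livers (0.68, adjusted p = 1.24e-05), with a difference of 1.33 at week 16 (adjusted p = 0.00561). The haem exporter Flvcr1 (0.16, adjusted p = 0.000391) and the haem transporter Slc48a1 (0.18, adjusted p = 0.00166) were also higher. Of the mitochondrial iron genes 5 of 9 were higher and 1 lower, with Iscu (0.36, adjusted p = 1.63e-08), Nfs1 (0.27, adjusted p = 3.69e-08) and Bola3 (0.25, adjusted p = 1.17e-05), which take part in building iron-sulfur clusters, in front. These medians of 0.14, 0.17 and 0.17 stood beside 0.08 over all genes, of which 35.8% were called higher and 6.78% lower, and no list was tested against that background.

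In islets 60 of the 73 genes were tested, with 12 higher and 10 lower in HFD, near the 16.6% and 22.0% of all islet genes, and a median of 0.01 against -0.01 over all genes. The balance of all islet calls turned with the scaling, as given above, from 43.1% higher to 77.4% without the insulin genes. The receptors that act on hepcidin were lower in 4 of 6, including Neo1 (-0.19, adjusted p = 2.50e-05), Hfe (-0.17, adjusted p = 0.000681) and Bmpr2 (-0.13, adjusted p = 0.0118). Of the SMAD branch 1 of 8 was lower, Smad6 (-0.16, adjusted p = 0.0108), while Id1 (0.16) and Smad1 (-0.07) were not called (adjusted p = 0.114 and 0.123). In the interleukin 6 branch 2 of 6 were lower, Il6st (-0.30, adjusted p = 0.000207) and Jak1 (-0.15, adjusted p = 0.00295), and Stat3 was not called (-0.11, adjusted p = 0.228). Cp was at 2.24 ± 1.09 FPKM in CD and 1.31 ± 0.413 FPKM in HFD islets (-0.44, adjusted p = 2.98e-05), and Ireb2, the second iron regulatory protein, was lower (-0.21, adjusted p = 0.000174), while Fbxl5 and Aco1 were not called (adjusted p = 0.150 and 0.875). Among the islet genes of uptake 2 of 9 were higher and 1 lower, namely the ferrireductases Steap1 (0.25, adjusted p = 0.000401) and Steap4 (0.30, adjusted p = 0.000440) and the endocytic receptor Lrp1 (-0.29, adjusted p = 8.74e-05). None of the 3 storage genes was called (Pcbp2 0.06, Ncoa4 0.06 and Pcbp1 0.05, with adjusted p of 0.0658 or more).

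In the islet haem lists, synthesis was higher in 3 of 9, led by Alas2, the red cell form of its first enzyme (0.49, adjusted p = 2.06e-05), which is also 1 of the red blood cell markers whose summed level is given above, followed by Uros (0.16, adjusted p = 0.00526) and Urod (0.09, adjusted p = 0.00900). In transport and breakdown 3 of 6 were higher, Slc48a1 (0.17, adjusted p = 2.16e-06), the biliverdin reductase Blvrb (0.16, adjusted p = 0.00253) and Hmox1 (0.20, adjusted p = 0.0236). Mitochondrial iron genes were higher in 4 of 9 with none lower, including Iscu (0.16, adjusted p = 3.04e-05) and Nfs1 (0.12, adjusted p = 0.000333). Beside these counts, 16.6% of all islet genes were called higher and 22.0% lower. The share of islet calls that were higher was 43.1%, or 77.4% without the insulin genes in the library total. No list was tested against that background.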

How the data were processed

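Islets and liver of 48 mice were measured by RNA-seq in 96 libraries, grouped by tissue, diet and week from the sample labels. The deposited table held FPKM per gene, and the authors' processing notes name HISAT2 2.0.4, Bowtie2 2.2.5, RSEM 1.1.12, DESeq2 and build GRCm38.p5, without their order. FPKM summed to 560016 to 1278652 per library, and no 2 libraries were identical. The deposited table held no counts, so counting error was not computed. The table's own columns of group means, fold changes, p-values and module memberships were not used.

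Gene IDs were matched to RefSeq symbols (21823 of 21990, 1273 symbols updated). log2(FPKM + 1) was fitted with limma 3.58.1 (trend, robust) in R 4.3.3 on group means, by week (8 libraries) and over all weeks of a tissue (48) or both (96), with Benjamini-Hochberg adjustment over all genes tested. Fits were tested on simulated data. The main model took no replicate block. Mouse numbers pair the tissues, since both came from the same animal (median correlation of deviations 0.12, over 0.1 in 26 of 48 mice). Correlations across mice used 100000 two-sided permutations within groups (scipy 1.17.1). Sequences were read with Biopython 1.88.

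All members are named, with up to 3 further genes per role list and tissue by smallest adjusted p, any list gene past a log2 difference of 1 in a week, and the 5 genes most like Hamp. 1 gene that this rule names is not reported here. Members and lists were chosen with earlier results of these data known. Alternatives were a pseudocount of 0.1, no low-value filter, median ratio scaling, insulin genes left out, a shared fit, a mouse block, a fold rule and leaving out each mouse, by week with the filter at 3 and, added later, at 4 libraries.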

Additional observations from a re-analysis of the deposited data

Results flagged for a closer look

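In 9 of 153 groups of 4 libraries, 1 library stood apart from the other 3 by Dixon's test at the 95% level, which chance gives in about 1 group in 20. In islets at week 24, mouse CD608 had Hamp2 at 10.34 FPKM, against 2.61 to 3.16 in the other CD islets, and Bmp6 at 0.93 FPKM, against 1.41 to 1.46. At the same week HFD611 had islet Hamp2 at 5.86 FPKM, against 2.66 to 3.17, and HFD616 had islet Bmp6 at 2.11 FPKM, against 1.32 to 1.35. In liver, Bmp6 was at 1.70 FPKM in CD403 at week 16, against 0.86 to 0.99.

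Liver Tfrc was at 9.89 FPKM in HFD318 at week 12, against 3.50 to 4.57, and at 21.82 FPKM in HFD511 at week 20, against 2.15 to 4.78. HFD511 was also the liver with the lowest Hamp (1.02 FPKM) and Hamp2 (0.19 FPKM). Liver Fth1 was at 1549.63 FPKM in HFD217 at week 8, against 2222 to 2359 in the other HFD livers, and islet Ftl1 was at 939.98 FPKM in CD208 at week 8, against 989.8 to 993.8.

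The HFD effect differed between the tissues for Ftl1, by 0.1959 (islet minus liver, limma adjusted p = 0.0346). Hamp was listed at 0 in 30 of 48 islet libraries.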

How the results depend on the processing

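Member calls by week numbered 3 in liver and 7 in islets. With the fold rule they were 1 and 0, without the low-value filter 0 and 3, and without the insulin genes 11 in islets. Leaving out each mouse gave 1 to 4 in liver and 4 to 8 in islets with the filter lowered to 3 libraries, and the same ranges with it kept at 4, an alternative added after the data were seen. Over the 6 weeks, 4 members in liver and 3 in islets were called, 1 and 0 with the fold rule, 3 to 4 and 2 to 4 without 1 mouse. Between weeks 24 and 4 on CD, 4 liver members were called, 1 with the fold rule and 3 to 4 without 1 mouse. Early against late weeks gave 0 in islets, and 0 to 1 without 1 mouse. The difference between tissues in the HFD effect was called for 2 members, Ftl1 and Hamp, the latter tested through its liver level alone, 1 with the fold rule, 4 under median ratio scaling, 4 without the insulin genes, and 1 to 3 without 1 mouse. With the mouse as a replicate block it was 3, and 7 for islet against liver. The block changed no other call.

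Signs turned for differences that were not called, apart from Bmp6 between tissues. Under median ratio scaling these were Ftl1 over the 6 weeks in liver (-0.0618), Bmp6 over the 6 weeks in islets (0.00952), Bmp6 in islets minus liver (-0.19) and Fth1 in the HFD effect of islets minus liver (0.0897). Without the insulin genes they were Bmp6 in islets (0.04355) and Fth1 between tissues (0.0237). Without 1 mouse, Hamp in liver ran from -0.58 to 0.0156 at week 12, -3.00 to 0.0369 at week 20 and -0.29 to 0.67 at week 24 (-0.0899 without CD606), and Bmp6 over the 6 weeks in islets from -0.0318 to 0.00842. The cause was not tested. Without any low-value filter more genes were tested, and the 3 weekly liver calls were all lost, Hamp at week 8 with adjusted p = 0.0650. Of the leave-one-out values for single genes, 1637 kept their direction and side of the threshold. A call was lost in 100 of them and gained in 7, and the sign turned in 8. By week with the filter kept at 4 libraries, 78 kept both, 38 lost a call and 4 turned in sign. Of the other alternative values, for single genes and relations, 193 kept both, 17 lost a call, 7 gained one and 6 turned in sign. The table holds no counts, so the counting error that limits low genes such as Bmp6 could not be computed.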
